A study of Mus musculus with 20 samples.

Results

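The genes described here are 10 imprinted genes tied to fetal growth, namely Plagl1, Ndn, Igf2, H19, Dlk1, Meg3, Cdkn1c, Peg3, Mest and Grb10. They were named one by one and matched through their Ensembl identifiers. All 10 were found among the 51912 genes of the 24 h table and among the 19722 genes of the 4 h table, and all 10 passed the filters on low values. Plagl1 and Ndn were the reason for the choice, because they differed between genotypes in some of the 24 h slices. Differences between KO and heterozygous slices at 24 h are therefore given for these genes as a description, with no test.

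The RNA-seq libraries were made from slices of mouse forebrain, cut at postnatal day 4 and cultured in 5% horse serum. The 24 h set held 4 libraries labelled KO and 3 labelled heterozygous (Het) of each sex, and the 4 h set held 3 libraries labelled KO and 3 labelled WT. KO stands for loss of TSG-6, the hyaluronan-binding protein encoded by Tnfaip6. The allele, the strain and the sex of the 4 h pups are not given in the labels. At 24 h the titles name no WT slices. The treatment text calls the 24 h controls WT, and the titles were followed. All slices received serum, so every comparison below is between labelled genotypes, sexes or times within serum-treated tissue. The libraries compared also differed in other respects, which are given below. Whether each library stands for an animal of its own is not labelled, and the p-values below reflect only how the libraries varied, technical variation included.

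Imprinted genes are transcribed mainly from the copy inherited from 1 parent. In mouse, many of the paternally expressed ones, such as Igf2, Dlk1, Peg3, Mest and Plagl1, favour growth, whereas maternally expressed ones, such as H19, Cdkn1c and Grb10 outside the nervous system, restrain it. Plagl1 encodes the zinc finger transcription factor ZAC1, which in mouse is known to act on several other imprinted genes, Igf2, H19, Dlk1 and Cdkn1c among them. In the postnatal forebrain, Ndn, Peg3 and Meg3 are known as neuronal transcripts, and Igf2 is made mostly by the meninges, the choroid plexus and blood vessels.

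Coordinates are those of GRCm38, and each gene is given from its first to its last annotated base. On chromosome 7 lie Peg3 (chr7:6703892-6730431, minus strand), Ndn (chr7:62346569-62350262, plus strand), H19 (chr7:142575529-142578143, minus strand), Igf2 (chr7:142650766-142666816, minus strand) and Cdkn1c (chr7:143458339-143461050, minus strand). Dlk1 (chr12:109452823-109463336) and Meg3 (chr12:109541001-109571726) share a domain of chromosome 12 and are both on the plus strand. Plagl1 (chr10:13060504-13131694, plus strand), Mest (chr6:30723547-30748465, plus strand) and Grb10 (chr11:11930508-12038683, minus strand) stand alone. H19 and Meg3 are long non-coding RNAs, and the other 8 are protein-coding. Copg2 overlaps Mest on the opposite strand with 780 to 1552 reads per library at 24 h, and reads of the 2 genes cannot be told apart there because no strand setting is given. Gm32061, antisense to Ndn, had at most 1 read in any 24 h library.

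Start regions are shown for Ndn and Plagl1, the genes behind the choice, and for Meg3, which of the 10 had the most negative KO-minus-WT log2 difference at 4 h, with the 2 microRNAs carried in H19, the gene that differed most between the 24 h and 4 h libraries. The windows run from 250 bases before to 50 bases after a RefSeq start on GRCm38.p6 and are printed 5′ to 3′ on the gene's own strand. RefSeq windows were found for 8 of the 10 genes, 15 windows in all; H19 and Cdkn1c had no entry. In the Ndn window (chr7:62348027-62348326, plus strand) the capitals mark a match to the NRF1 motif, CGCATGCGC.
Ndn: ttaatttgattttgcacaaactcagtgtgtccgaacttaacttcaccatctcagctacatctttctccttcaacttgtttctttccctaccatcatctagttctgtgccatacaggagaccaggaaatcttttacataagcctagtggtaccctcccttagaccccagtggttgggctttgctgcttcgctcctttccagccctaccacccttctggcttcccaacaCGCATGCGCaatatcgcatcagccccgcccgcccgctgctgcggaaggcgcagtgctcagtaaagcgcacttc
In the Plagl1 window (chr10:13090582-13090881, plus strand) the capitals mark its 26 CpG dinucleotides.
Plagl1: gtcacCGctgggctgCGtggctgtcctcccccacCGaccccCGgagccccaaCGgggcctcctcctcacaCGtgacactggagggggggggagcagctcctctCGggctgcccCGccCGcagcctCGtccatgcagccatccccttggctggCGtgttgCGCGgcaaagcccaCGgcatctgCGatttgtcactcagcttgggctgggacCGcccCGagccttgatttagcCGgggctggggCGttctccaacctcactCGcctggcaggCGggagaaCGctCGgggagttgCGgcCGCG
In the Meg3 window (chr12:109540746-109541045, plus strand) the capitals mark a cAMP response element, TGACGTCA.
Meg3: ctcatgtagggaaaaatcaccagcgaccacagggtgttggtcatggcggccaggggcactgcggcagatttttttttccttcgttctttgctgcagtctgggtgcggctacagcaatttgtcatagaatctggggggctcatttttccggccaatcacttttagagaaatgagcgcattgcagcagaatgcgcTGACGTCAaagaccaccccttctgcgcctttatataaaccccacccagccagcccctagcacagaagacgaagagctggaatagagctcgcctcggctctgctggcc
The mature microRNAs of H19 lie on the minus strand at chr7:142577112-142577133 and chr7:142577078-142577099, and the capitals mark their seeds, bases 2 to 8.
mmu-miR-675-5p: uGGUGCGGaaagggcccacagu
mmu-miR-675-3p: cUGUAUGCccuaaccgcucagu

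The NRF1 match began 23 bases upstream of the Ndn start, and on both strands the motif stood in 1.75% of 32851 mouse windows of the same length. The cAMP response element began 57 bases upstream of the Meg3 start and was found in 1.79% of windows, that of Peg3 included. TATAAA, in 13.6% of windows, was found in the Meg3 window alone among the 15. GGGGCCCC, searched as a ZAC1 motif, was found in 1.08% of windows and in that of Peg3. The E-box CACGTG, in 7.15% of windows, was found in the Plagl1 window. With 26 CpG, the Plagl1 window held more than 83.1% of all windows, whose median was 7. These are letter matches and say nothing of binding. No small RNA was measured, so the 2 microRNAs, which have different seeds, have no values here.

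Sequencing gave 8482933 to 18051300 counted reads per library at 24 h and 11411532 to 15030171 at 4 h, and no member had fewer than 45 reads in any library. Tnfaip6 had 5.08 to 7.96 CPM (reads of a gene scaled to a common library total) in libraries labelled KO at 24 h, against 3.43 to 6.65 CPM in Het libraries, and 3.08 to 6.40 CPM in libraries labelled KO at 4 h, against 5.25 to 7.14 CPM in WT libraries. The part of the gene that was deleted is not given in the sources used here, so its reads do not check the labels, and the libraries are called KO-labelled. The library labelled KO female 2 had 0 Xist reads and 152 CPM of Y-linked genes, against its label. Ttr, a choroid plexus transcript, stood at 450.4 to 2669 CPM in KO-labelled female 1, female 3 and male 3 and at most 0.806 CPM in the other 11 libraries of 24 h. At 4 h no sex is labelled, and Xist was present in KO-labelled library 1 and WT library 1.

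Per unit of transcript length, H19 was the most abundant of the 10 genes at 24 h, with a median of 809 TPM (library-scaled reads per length of exon; range 687 to 1095 over 14 libraries). Ndn followed at 436 TPM (203 to 591), and its range did not meet that of H19. Igf2 (193 TPM), Meg3 (95.4), Peg3 (73.2) and Mest (72.0) came next, and each overlapped its neighbour in this order. Grb10, an adaptor that dampens insulin and IGF receptor signalling, lay apart at 35.0 TPM (31.2 to 39.0). Cdkn1c, a cyclin-dependent kinase inhibitor, at 24.1 TPM, Plagl1 at 19.6 TPM and Dlk1 at 7.18 TPM closed the order, each overlapping the next. At 4 h, Ndn led at 277 TPM (246 to 326), above Igf2 (153 TPM) and Meg3 (149 TPM), while H19, at 59.9 TPM (45.3 to 69.2), ranked below Peg3 (64.7 TPM) with overlap.

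The 2 genes behind the choice lay in opposite directions in male slices at 24 h, Ndn lower and Plagl1 higher in KO-labelled slices. Ndn encodes necdin, a MAGE-family protein that promotes neuronal differentiation and survival. It had 228, 269.7, 207 and 183 CPM in KO-labelled male libraries, against 401, 425 and 495 CPM in Het male libraries. Every KO-labelled male library lay below every Het male library, with a fitted log2 difference of -0.99 (SE 0.28). Plagl1 had 47.7, 41.8, 42.0 and 43.1 CPM in KO-labelled male libraries, against 25.1, 30.4 and 25.7 CPM in Het male libraries. Here every KO-labelled male library lay above every Het male library, by 0.68 on the log2 scale (SE 0.11). Of the 16013 genes fitted, 50 had a lower male difference than Ndn and 239 a higher one than Plagl1. Across all genes, 7.18% had male groups that did not overlap, 3.40% with KO-labelled libraries higher and 3.77% lower; Ndn and Plagl1 were the only 2 of the 10 genes among them and were chosen for it. In bulk RNA, fewer cells of a type and less RNA per cell cannot be told apart.

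In female slices neither gene separated the genotypes. Plagl1 had 40.9, 32.7, 41.4 and 32.4 CPM in KO-labelled female libraries, against 37.2, 33.9 and 39.5 CPM in Het female libraries, so that the ranges coincided (log2 difference 0.00, SE 0.10). Ndn had 461, 229, 559 and 425 CPM in KO-labelled female libraries, against 404, 549.6 and 188 CPM in Het female libraries. Both female groups thus held 1 library as low as the KO-labelled male libraries, and the log2 difference was 0.14 (SE 0.28). Without the library labelled KO female 2, which carried Y-linked reads and was the low one for Ndn, KO-labelled females averaged 482 ± 69.1 CPM (SD, n = 3), against 381 ± 182 CPM in Het females (SD, n = 3). Whether the genotype difference itself differed between sexes was not tested, because the genes were picked from these libraries. None of the 10 genes had female groups that did not overlap, against 4.70% of all genes, 2.30% with KO-labelled libraries higher and 2.40% lower.

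**Figure D1:**
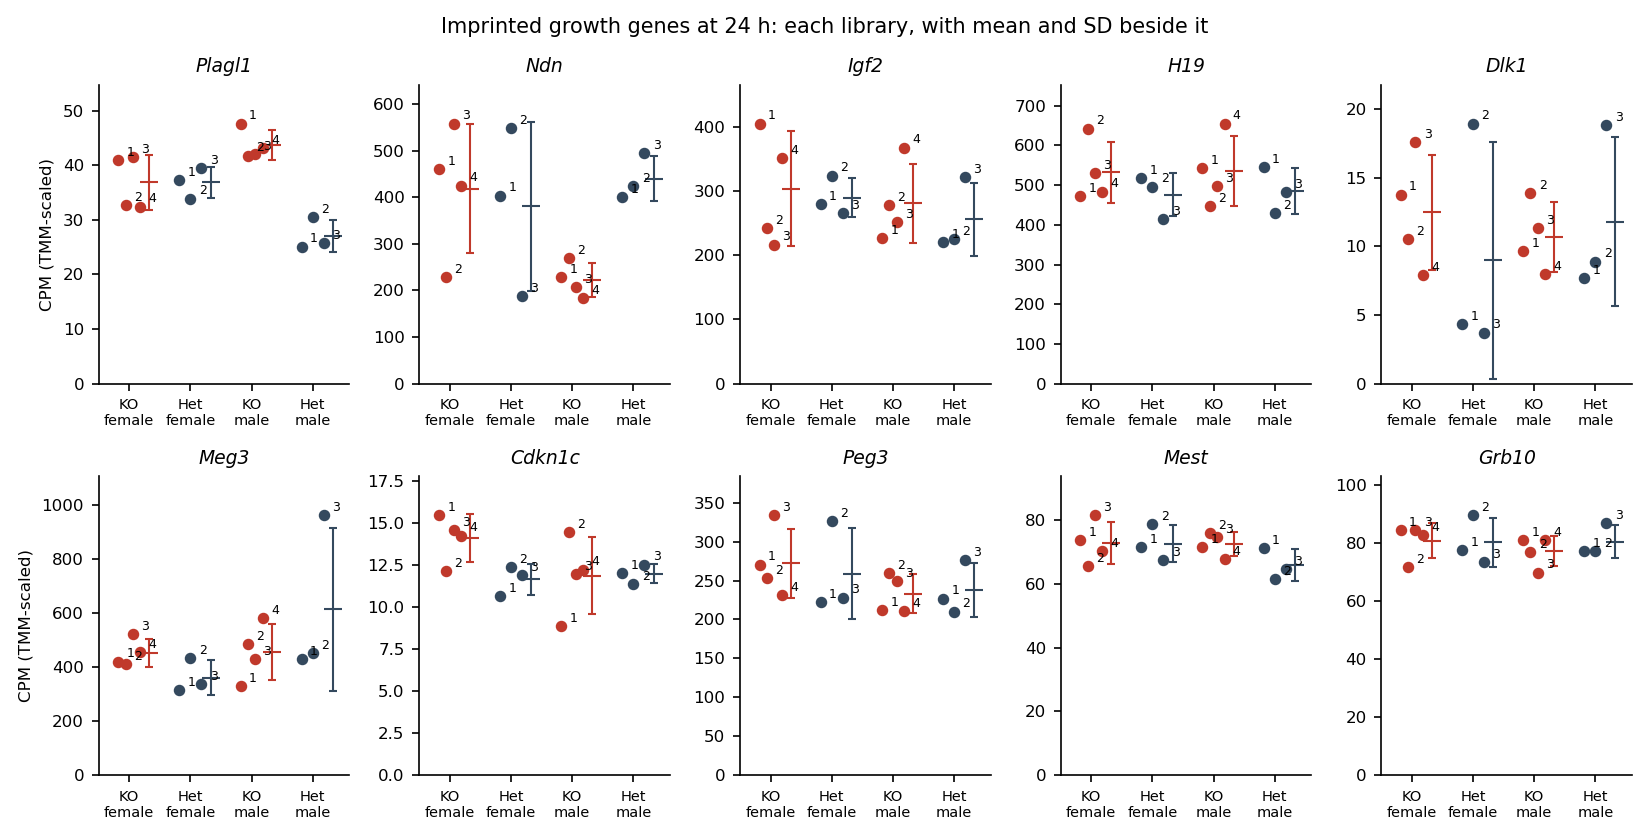
Level of each of the 10 genes in the 14 libraries of 24 h, in CPM on linear axes that start at 0, with KO-labelled libraries in red left of Het libraries in blue for each sex; numbers are replicate numbers and the bars beside the points are mean ± SD. The male groups are apart for Plagl1 and Ndn, and 1 Het male library stands out for Meg3 at 963.5 CPM.

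Ndn levels left a gap over the 14 libraries. Of these, 6 had 183 to 269.7 CPM and 8 had 401 to 559 CPM, with none between. The 4 KO-labelled male libraries, the library labelled KO female 2 and Het female 3 made up the lower 6. The highest library had 3.06-fold the level of the lowest, a spread that follows in part from the choice of Ndn on these libraries. Its neighbours in the same imprinted domain did not share the gap. Snrpn, a splicing factor gene, ranged 1.19-fold (146 to 173 CPM) and Mkrn3, a ubiquitin ligase gene, 1.34-fold (16.6 to 22.4 CPM). Magel2, a MAGE-family relative of Ndn, ranged 3.64-fold, with its lowest level of 14.4 CPM in Het female 1 and its highest of 52.2 CPM in Het female 2. The lower 6 libraries for Ndn had 19.3 to 36.9 CPM of Magel2, against 14.4 to 52.2 CPM in the upper 8.

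The genes whose log2 CPM ran closest to Ndn over the 14 libraries were Rplp2, a ribosomal protein gene (Pearson r = 0.91), Rnf187 (0.89) and Ndufs7, a gene of mitochondrial complex I (0.88). Those ranged much less, Rplp2 from 169.6 to 241 CPM. Libraries also differed in how far longer transcripts were represented, measured as the median log2 excess of the longest over the shortest of 5 equal bins of genes. This tilt was -0.02 to 0.12 in KO-labelled male libraries and -0.13 to -0.04 in Het male libraries, and it was 0.11 in KO-labelled female 2 and 0.07 in Het female 3, the 2 female libraries low in Ndn. With gene length and GC content fitted out, the male differences were -0.98 for Ndn (SE 0.29) and 0.66 for Plagl1 (SE 0.11). The correction was linear in GC content and log2 length, so other differences between libraries remain in these values. Their part was not tested. The 12 meningeal markers summed to 568 to 754 CPM in KO-labelled males, against 476 to 576 CPM in Het males, and 8 pan-neuronal markers to 5593 to 5912 CPM in KO-labelled males, against 5572 to 5990.0 CPM in Het males; no marker of these lists was at 0, and the part of the meningeal difference in the values of Ndn and Plagl1 was not tested. For Plagl1 the most alike genes were Sec24b (0.86), Gm14207 (0.85) and Usp49 (0.83), of which Gm14207 had only 0.194 to 1.19 CPM.

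**Figure D2:**
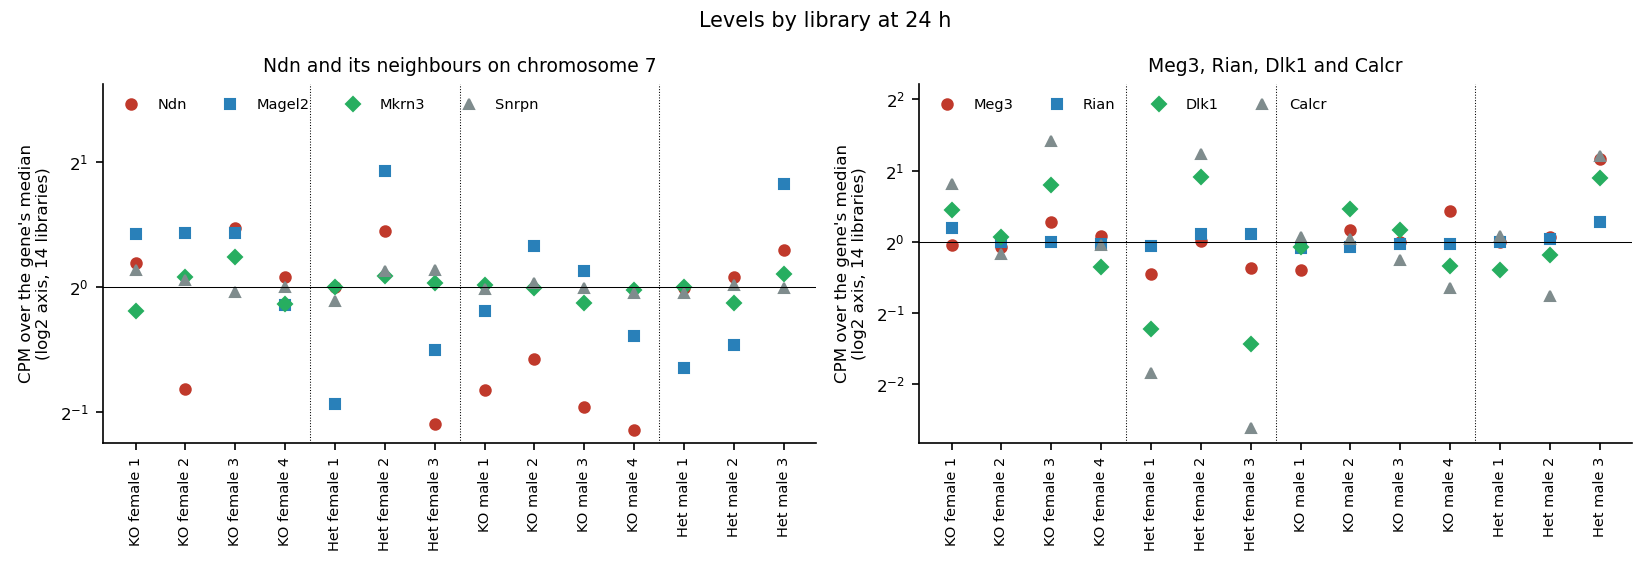
CPM of each gene divided by its own median over the 14 libraries of 24 h, on a log2 axis, for Ndn with Magel2, Mkrn3 and Snrpn (left) and for Meg3 with Rian, Dlk1 and Calcr (right); dotted lines part the groups. Ndn is low in 6 libraries in which Mkrn3 and Snrpn are near their medians, and Dlk1 and Calcr are high and low in the same libraries.

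The other 8 genes overlapped between genotypes in both sexes at 24 h. Igf2, the fetal insulin-like growth factor, had 227, 278, 251 and 368 CPM in KO-labelled male libraries, against 221, 225 and 322 CPM in Het male libraries. In females it had 405, 242, 217 and 352 CPM in KO-labelled libraries, against 279.5, 324 and 266 CPM in Het libraries. Its lowest library, KO-labelled female 3, also had the lowest summed level of 12 meningeal markers, 273 CPM against 476 to 754 CPM in the other 13 libraries, and the highest sum of 10 choroid plexus markers, 2785 CPM; their part in the Igf2 value was not tested. The 3 genes most like Igf2 were Mrc2 (r = 0.92), Nid1 (0.87) and Bgn (0.87), which encode a collagen receptor, a basement membrane protein and a matrix proteoglycan.

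H19, the non-coding RNA next to Igf2, had 543, 447, 497 and 655 CPM in KO-labelled male libraries, against 545, 429 and 483 CPM in Het male libraries. In females it had 472, 643, 531 and 484 CPM in KO-labelled libraries, against 517, 496 and 415 CPM in Het libraries. H19 varied 1.58-fold over the 14 libraries and did not follow Igf2 among them, with a Pearson r of -0.01 (permutation p = 0.966) and a Spearman rho of -0.18 (permutation p = 0.531). Without the 2 libraries farthest from the median of H19, r was -0.25, and within groups it was -0.06. At 4 h, with 6 libraries, r was 0.74 (exact permutation p = 0.104) and rho 0.49 (exact permutation p = 0.356). Without the 2 libraries farthest in H19, r was -0.83 over the remaining 4. The 4 h relation thus rests on those 2, KO-labelled libraries 1 and 3, which were lowest in both genes. No r within groups was computed at 4 h. The 24 h and 4 h relations of H19 with Igf2 are 2 of 4 tested. Their Benjamini-Hochberg values were 0.966 at 24 h and 0.208 at 4 h for r, and 0.531 at both times for rho.

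Meg3, a maternally expressed non-coding RNA, had 328, 485, 429 and 580.2 CPM in KO-labelled male libraries, against 429, 451 and 963.5 CPM in Het male libraries. In females it had 420.0, 409.6, 524 and 455 CPM in KO-labelled libraries, against 314, 434 and 336 CPM in Het libraries. The log2 difference was -0.43 (SE 0.23) in males, and 0.05 without Het male 3, whose level was the highest of all. Rian, the next non-coding RNA of the Meg3 domain, was also highest in Het male 3, at 835 CPM, but ranged only 1.29-fold over the 14 libraries against 3.07-fold for Meg3. The genes most like Meg3 were Vwa5b2 (r = 0.97), Snhg11 (0.96) and Tspoap1 (0.95), of which Snhg11, a non-coding neuronal transcript, ranged from 126 to 589.8 CPM.

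Dlk1, a membrane ligand related to Notch ligands, was the scarcest of the 10 per length and the most uneven over the 14 libraries. It had 9.64, 13.9, 11.3 and 7.95 CPM in KO-labelled male libraries, against 7.68, 8.89 and 18.9 CPM in Het male libraries. In females it had 13.8, 10.6, 17.6 and 7.93 CPM in KO-labelled libraries, against 4.31, 18.96 and 3.72 CPM in Het libraries. Het females alone held both the lowest and the highest of the 14 levels, which were 5.10-fold apart. The gene most like Dlk1 was Calcr, the calcitonin receptor gene and itself imprinted (r = 0.94), with 1.24 CPM in Het female 3 and 20.4 CPM in KO-labelled female 3, followed by Agt (0.93) and Ubap1l (0.92). The 5 libraries with most Dlk1 were also those highest in a sum of 8 hypothalamic neuron markers, with 25.1 CPM in KO-labelled female 3, 19.3 CPM in KO-labelled female 1, 18.2 CPM in KO-labelled male 2, 18.4 CPM in Het male 3 and 18.2 CPM in Het female 2. The other 9 libraries had 11.9 to 17.5 CPM of these markers. All these sums are low, with up to 3 of the 8 markers at 0 in the first 5 libraries and up to 5 in the other 9. The part of these markers in the Dlk1 level was not tested.

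Meg3 and Dlk1 had a Pearson r of 0.61 over the 14 libraries (permutation p = 0.0213, Benjamini-Hochberg 0.0851 over 4 relations), a rho of 0.49 (permutation p = 0.0738, Benjamini-Hochberg 0.295), an r of 0.57 within groups, and 0.40 without the 2 libraries farthest in Meg3. At 4 h their r was 0.45 (exact permutation p = 0.325, Benjamini-Hochberg 0.433) and their rho 0.37 (exact permutation p = 0.497, Benjamini-Hochberg 0.531), and r was -0.08 without the 2 farthest libraries.

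Peg3, a zinc finger gene involved in growth and maternal behaviour in mouse, had 211 to 260.1 CPM in KO-labelled males, against 210.2 to 276 CPM in Het males, and 232 to 334 CPM in KO-labelled females, against 223 to 326 CPM in Het females. Its most alike genes were Tmem255a (r = 0.94), Irs4 (0.94), an insulin receptor substrate, and Zim1 (0.93), its imprinted neighbour on chromosome 7. Irs4 ranged from 3.26 to 38.4 CPM, far more widely than Peg3. Mest, a hydrolase-fold protein gene, and Grb10 were the steadiest, ranging 1.33-fold and 1.28-fold over the 14 libraries. Mest averaged 72.5 ± 3.61 CPM in KO-labelled males and 65.8 ± 5.02 CPM in Het males, and 72.8 ± 6.72 CPM in KO-labelled females and 72.6 ± 5.79 CPM in Het females (SD, n = 4 KO-labelled and 3 Het each). Grb10 averaged 77.3 ± 5.30 CPM in KO-labelled males and 80.5 ± 5.70 CPM in Het males, and 80.9 ± 6.10 CPM in KO-labelled females and 80.4 ± 8.41 CPM in Het females (SD, same n). Cdkn1c averaged 11.9 ± 2.31 CPM in KO-labelled males and 11.99 ± 0.571 CPM in Het males, and 14.1 ± 1.42 CPM in KO-labelled females and 11.7 ± 0.908 CPM in Het females (SD, same n), where KO-labelled female 2, at 12.1 CPM, closed the gap between the female groups. Ccdc136 (r = 0.86), Psmg1 (0.82) and Ephb3 (0.82) were most like Cdkn1c. Pcdh19 (0.82), Adgrl3 (0.81) and Trpv4 (0.80) were most like Mest, Flywch2 (0.90), 1110038F14Rik (0.87) and Tes (0.85) most like Grb10, and Tnfrsf1a (0.82), Nhlrc3 (0.82) and Orai1 (0.81) most like H19. These are descriptions over 14 libraries that share their preparation, and they carry no p.

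Over the 10 genes, 4 of 10 male log2 differences were above 0, with a median of -0.02, beside -0.0013 over all genes. Of all 16013 genes, 7951 were above 0 in males and 8204 in females. In females all 10 of the growth genes were above 0, with a median of 0.11, beside 0.0032 over all genes. The largest were Dlk1 (0.48, SE 0.45), Meg3 (0.32, SE 0.23) and Cdkn1c (0.28, SE 0.14). The smallest, Plagl1 (0.0042, SE 0.10), Mest (0.0063, SE 0.08) and Grb10 (0.010, SE 0.08), were far smaller than their SE. Leaving out 1 library or changing the fit took the female values of Plagl1, Ndn, Igf2, Peg3, Mest and Grb10 below 0 in at least 1 setting. Among 51 other imprinted genes fitted, 23 were above 0 in males (median -0.02) and 31 in females (median 0.10).

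**Figure D3:**
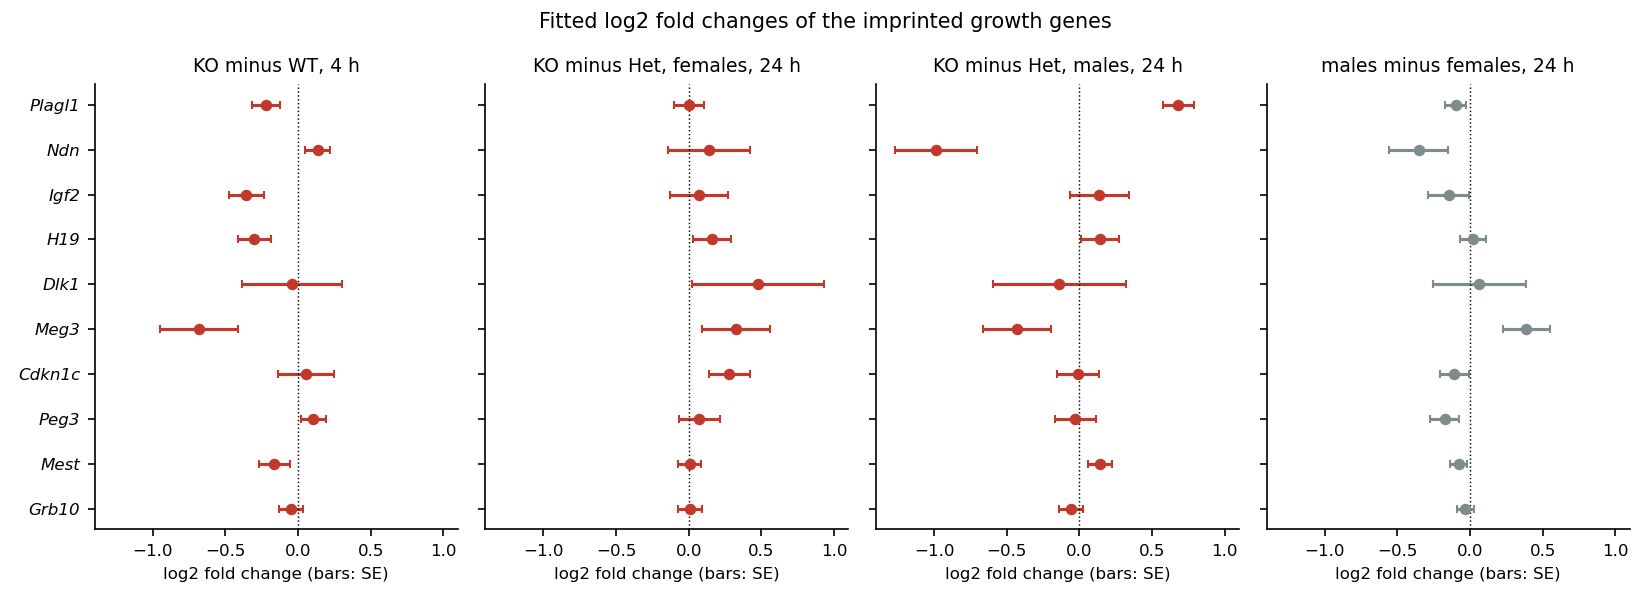
Fitted log2 fold changes of the 10 genes with SE bars, in 4 panels: KO-labelled minus WT at 4 h, KO-labelled minus Het in females and in males at 24 h, and males minus females at 24 h. In males at 24 h Ndn is at -0.99 and Plagl1 at 0.68, and at 4 h Meg3 is lowest at -0.68.

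The 4 h libraries had no part in the choice of genes, so KO-labelled and WT slices could be compared there by test. None of the 10 genes passed an adjusted p of 0.05 in limma's moderated test over 15181 genes, where 7 genes, or 0.0461%, did; 4 of the 10 had an unadjusted p below 0.05, as had 2110 of all genes (13.9%), and none passed in edgeR or DESeq2 on the recovered reads. Those 4 were Igf2, H19, Meg3 and Plagl1, each with a log2 difference below 0. Igf2 had 2431, 3066 and 2077 normalised reads in KO-labelled libraries, against 3596, 2853 and 3165 in WT libraries. KO-labelled library 2 reached into the WT range, and the log2 difference was -0.36 (SE 0.12, limma adjusted p = 0.219). H19 had 405, 503 and 375 normalised reads in KO-labelled libraries, against 487, 579 and 508 in WT libraries, again with KO-labelled library 2 overlapping (log2 difference -0.30, SE 0.11, limma adjusted p = 0.266).

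Meg3 had 9542, 3645 and 8662 normalised reads in KO-labelled libraries, against 12735, 8345 and 11705 in WT libraries. The groups overlapped, and the log2 difference was -0.68 (SE 0.27, limma adjusted p = 0.275). Without KO-labelled library 2 it was -0.24. Plagl1 had 369, 401 and 348 normalised reads in KO-labelled libraries, against 433, 403 and 467 in WT libraries. It was the only 1 of the 10 whose groups did not overlap, where 10.1% of all genes had KO-labelled libraries wholly higher and 8.88% wholly lower. Its log2 difference was -0.22 (SE 0.10, limma adjusted p = 0.335), opposite in sign to the male difference at 24 h, where the comparison was with Het slices. Ndn had 4074, 3530 and 3350 normalised reads in KO-labelled libraries, against 3048, 3686 and 3229 in WT libraries, so that the groups overlapped, and its log2 difference was 0.14 (SE 0.09, limma adjusted p = 0.511).

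The remaining 5 genes had log2 differences between -0.16 and 0.11 at 4 h, namely Mest -0.16 (SE 0.11), Grb10 -0.05 (SE 0.08), Dlk1 -0.04 (SE 0.34), Cdkn1c 0.06 (SE 0.19) and Peg3 0.11 (SE 0.09), with limma adjusted p from 0.516 to 0.973. Dlk1 again had a wide spread, with 152, 44.99 and 53.6 normalised reads in KO-labelled libraries, against 69.8, 88.7 and 65.0 in WT libraries, and its sign turned with the test used. Within the pairs of same-numbered libraries, KO-labelled was below WT in 3 of 3 pairs for Plagl1, H19, Meg3 and Grb10, and in 1 or 2 of 3 for the other 6. The share of all genes lower in 3 of 3 pairs was not counted, so this describes the 10 genes only. The KO-labelled level relative to WT was 0.749, 0.437 and 0.740 for Meg3 and 0.831, 0.868 and 0.739 for H19. Over the 10 genes 7 log2 differences were below 0, with a median of -0.11, beside 0.0024 over all genes. Of all 15181 genes, 7501 were below 0. When same-numbered libraries were treated as pairs, a replicate block, 38 genes passed in place of 7, and none of the 10 did; Meg3 then had a limma adjusted p of 0.0636, H19 of 0.154 and Igf2 of 0.189. Leaving out KO-labelled library 2 raised the count over all genes to 211 and brought in Igf2 (log2 difference -0.51, SE 0.09, limma adjusted p = 0.0182), whose adjusted p ran from 0.0182 to 0.682 over 16 settings.

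Summed markers of vessels and meninges lay in the same direction as Igf2 and H19 at 4 h. The sum of 10 endothelial and mural markers was 340.2 to 361 CPM in KO-labelled libraries, against 405 to 471 CPM in WT libraries, without overlap. The sum of 12 meningeal markers was 210.2 to 323 CPM in KO-labelled libraries, against 285 to 369 CPM in WT libraries; no marker of either list was at 0. The sum of 6 astrocyte markers was 1357 to 1407 CPM in KO-labelled libraries, against 1492 to 1668 CPM in WT libraries, and that of 8 pan-neuronal markers 7071 to 7478 CPM in KO-labelled libraries, against 6787 to 6927 CPM in WT libraries, both without overlap. The 6 markers of cortical excitatory neurons summed to 778 to 871 CPM in KO-labelled libraries, against 581 to 726 CPM in WT libraries. The part of these marker differences in the values of the 10 genes was not tested.

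**Figure D4:**
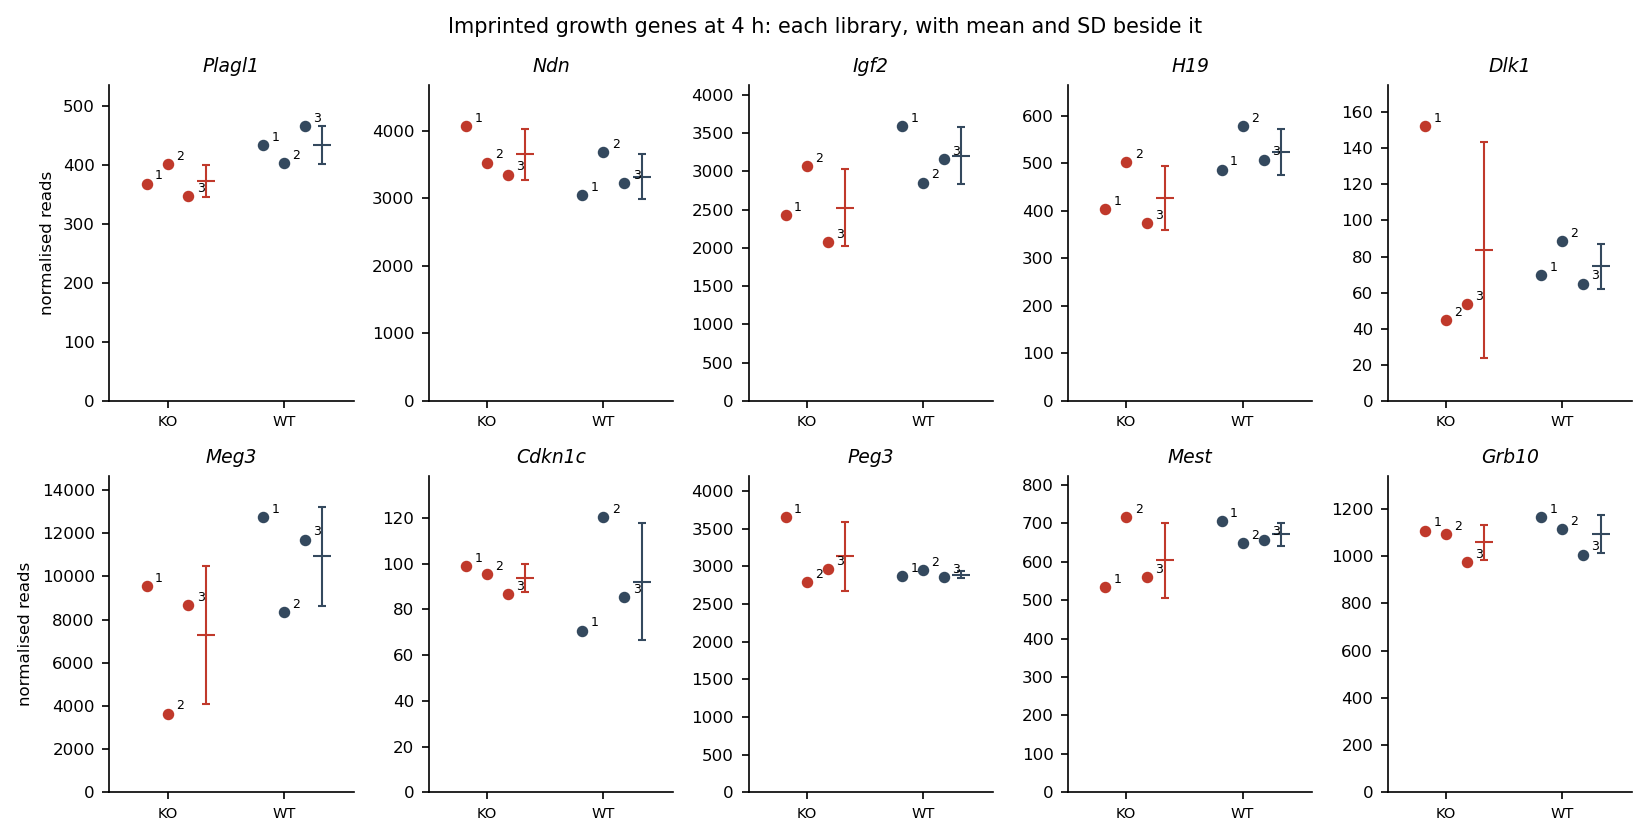
Normalised reads of the 10 genes in the 3 KO-labelled (red, left) and 3 WT (blue, right) libraries of 4 h, on linear axes that start at 0, with replicate numbers beside the points and mean ± SD to their right. Plagl1 is the panel in which the 2 groups are apart, with 348 to 401 reads in KO-labelled libraries and 403 to 467 in WT libraries.

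Other imprinted genes and the insulin-like growth factor (IGF) pathway gave no call at 4 h either. Of 51 other imprinted genes tested, limma called none (1 had an unadjusted p below 0.05), and of 16 IGF pathway genes none (2 unadjusted), where 13.9% of all genes had such a p; edgeR and DESeq2 on the recovered reads also called none. Airn, the non-coding RNA that silences Igf2r in mouse, had 4.39, 14.1 and 5.70 normalised reads in KO-labelled libraries, against 14.1, 19.7 and 17.3 in WT libraries, at the low end of what was tested (log2 difference -1.13, SE 0.45, limma adjusted p = 0.280). Next by size came Kcnq1ot1 (-0.52, SE 0.29), Slc38a4 (0.48, SE 0.30), Magel2 (-0.37, SE 0.20) and Ddc (-0.36, SE 0.26). Rian, beside Meg3, had a log2 difference of -0.10 (SE 0.07). In the IGF pathway the largest were the binding protein gene Igfbp6 (-0.64, SE 0.38), Irs4 (0.36, SE 0.44), the mRNA-binding protein gene Igf2bp3 (-0.27, SE 0.18), Igfbp7 (-0.26, SE 0.11) and Igfbp3 (-0.26, SE 0.10). Of 5 cyclin-dependent kinase inhibitors other than Cdkn1c, none was called and none had an unadjusted p below 0.05, with values from Cdkn2c (-0.19, SE 0.17), Cdkn1b (-0.17, SE 0.09), Cdkn2b (-0.08, SE 0.27) and Cdkn2d (-0.05, SE 0.09) to Cdkn1a (0.03, SE 0.10).

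Males and females were compared by label at 24 h with genotypes weighted equally. The female libraries included that labelled KO female 2, whose sex-linked reads go against its label, so this is no clean contrast of the sexes. edgeR's quasi-likelihood test called 3 of 16013 genes (0.0187%), all lower in males. Of the growth genes other than Plagl1 and Ndn, edgeR called none and DESeq2 called none. Among these genes, 1 had an unadjusted p below 0.05 in edgeR, as had 708 of all genes (4.42%). That one was Meg3, higher in males by 0.39 on the log2 scale (SE 0.16, edgeR adjusted p = 0.998), or by 0.15 without Het male 3. Over 21 other settings of edgeR or DESeq2, the adjusted p of Meg3 ran from 9.91e-10 to 0.99999. It passed the threshold only with no filter on low counts. Igf2 (-0.15, SE 0.14), Peg3 (-0.18, SE 0.10), Cdkn1c (-0.11, SE 0.10), Mest (-0.08, SE 0.06) and Grb10 (-0.03, SE 0.06) had values below 0, and H19 (0.02, SE 0.09) and Dlk1 (0.06, SE 0.32) above, each with an edgeR adjusted p of 0.998. Plagl1 (-0.10, SE 0.07) and Ndn (-0.35, SE 0.20) are given without a test, since the same libraries chose them. No other imprinted gene of 51, IGF pathway gene of 16 or kinase inhibitor of 5 was called by edgeR (3, 2 and 0 with an unadjusted p below 0.05, beside 4.42% of all genes) or by DESeq2. By size, Airn (0.40), Slc38a4 (-0.38), Peg12 (0.35), Asb4 (-0.30) and Ddc (0.26) led the imprinted genes, Irs4 (-0.93), Igfbp6 (-0.29), Igfbp3 (0.20), Igf1r (-0.17) and Irs1 (-0.16) the IGF pathway, and Cdkn2b (0.45), Cdkn2d (0.07), Cdkn1a (0.04), Cdkn1b (0.04) and Cdkn2c (-0.01) the inhibitors.

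Between the 24 h and 4 h libraries, H19 differed far more than its companions. Over the genes shared by both tables, H19 had 413 to 665 CPM in the 14 libraries of 24 h, against 28.8 to 44.6 CPM in the 6 of 4 h. The median of KO-labelled libraries was 507 CPM at 24 h and 30.8 CPM at 4 h, a 16.5-fold ratio. Of 14486 genes with a median of at least 1 CPM in both sets, 1 had a larger ratio, Lcn2 (19.8-fold), a gene induced in reactive astrocytes. Next below H19 stood Hmox1 (15.8-fold), a gene of oxidative stress. Genes with a median below 1 CPM at 4 h or at 24 h were not ranked. Mest was the other gene whose ranges did not meet, with 61.4 to 80.5 CPM at 24 h and 40.6 to 55.2 CPM at 4 h. The other 8 overlapped, Igf2 among them, with 214 to 399 CPM at 24 h and 159.6 to 281 CPM at 4 h, and Grb10 had 69.0 to 90.3 CPM at 24 h and 74.8 to 91.0 CPM at 4 h. Of all genes compared, 21.1% had ranges that did not meet. The sets also differ in control genotype, labelled sex and table, so time cannot be told apart from these, and no test was made.

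**Figure D5:**
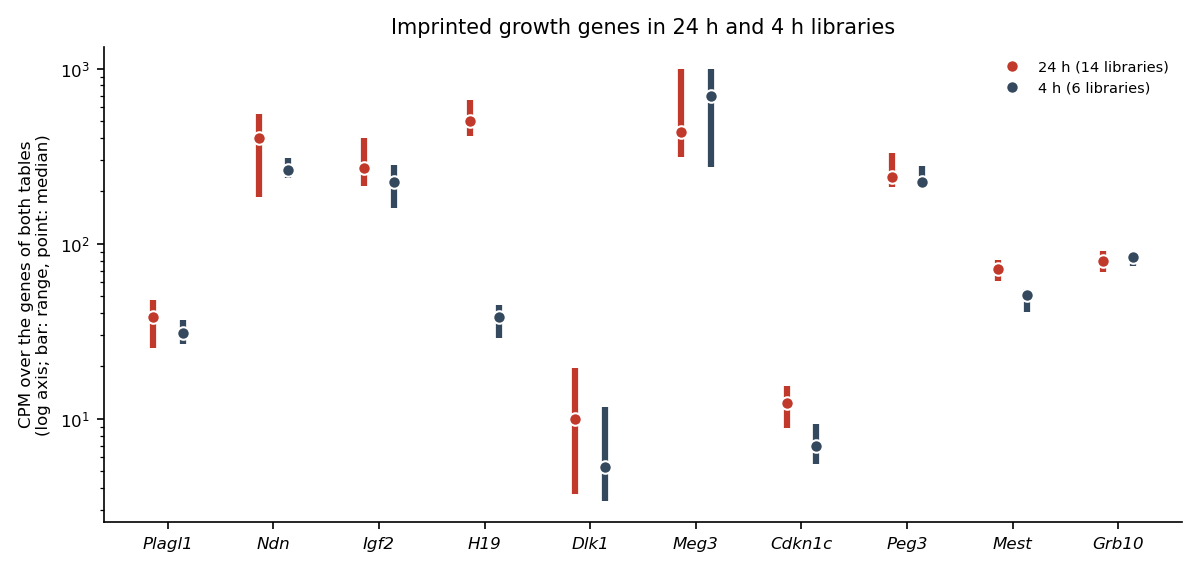
CPM of the 10 genes over the genes shared by both tables, on a log axis, with 24 h libraries in red left of 4 h libraries in blue; bars span the lowest to the highest library and points are medians. H19 is at a median of 499 CPM at 24 h and 38.0 CPM at 4 h, and the bars of the other genes lie near each other.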

How the data were processed

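A pair of count tables of bulk RNA-seq from cultured mouse forebrain slices were used, for 20 libraries, grouped by time, genotype and labelled sex. Per the labels' protocols, total RNA was amplified with a SMART-Seq V4 kit. TopHat2, HTSeq, DESeq2 1.38.3 and GRCm38/mm10 are named in the submitters' processing notes; the strand setting is not given in the sources used here. Deposited for 24 h is a table that holds raw counts per gene as deposited by the authors (51912 identifiers, 21642 at 0 throughout). The 4 h table holds normalised signal as deposited, read counts divided by size factors: multiplied back, 100.0% of values came out whole (tolerance 0.05).

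At 4 h, limma 3.58.1 with an intensity trend was fitted in R 4.3.3 on log2(value + 1) of the 15181 genes with a mean of at least 10, a scale that understates changes of low genes. At 24 h, edgeR 4.0.16 (quasi-likelihood, TMM, filterByExpr, 16013 genes) was fitted with 1 mean per genotype and sex, and males were contrasted with females averaged over genotypes. Tests were two-sided with Benjamini-Hochberg adjustment over all genes and a threshold of 0.05. CPM values of genes at 24 h are TMM-scaled; those of markers, of Tnfaip6 and of both times side by side use plain totals. The fits were run on simulated counts of independent libraries with the same spread set for every gene. This checks the code and not how the fits behave at the spread of these libraries. Gene lengths are GENCODE M21 exon lengths, and promoters and microRNAs are RefSeq entries. The labels name no pairs. At 4 h, same-numbered KO and WT libraries deviated together in each of 3 pairs (r 0.14 to 0.28), against r of -0.25 to 0.08 for differently numbered ones. Whether the numbers pair the libraries is not known, so the main fit used no pairs and a replicate block was an alternative. Libraries within a group differed by more than sampling noise (chi-square per degree of freedom 3.17 to 12.7). Permutation tests used 100000 resamples at 24 h and all orders at 4 h.

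The members, gene lists and tests were chosen with earlier results of these data known. Named besides the 10 genes are listed genes past the threshold, the 5 with the largest change in each list of 55 other imprinted, 17 IGF pathway and 6 kinase inhibitor genes, and the 3 genes most correlated with each member; neighbours and lists' markers stand beside results they touch. Treatment text calls the 24 h controls WT and titles call them heterozygous, and titles were followed. The medium is named differently in 2 places of the labels and is left out. Alternatives were another pseudocount, filter, normalisation or tool, a replicate block, leaving out each library, and, chosen after seeing the data, a correction for GC content and length.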

Additional observations from a re-analysis of the deposited data

Results flagged for a closer look

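Grb10 in KO-labelled female 2 stood at 71.8 CPM, apart from the other 3 KO-labelled female libraries, which had 82.7 to 84.5 CPM, by a gap of 0.858 of the group's range; this passes Dixon's 95% critical value for 4 samples. This is the library whose sex-linked reads go against its label. It was the only one among 20 groups of 4 examined, and chance flags about 1 in 20 groups.

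For Meg3, the ratio of KO-labelled to Het means was 1.25 in females and 0.742 in males at 24 h: every KO-labelled female library lay above the Het female mean and every KO-labelled male library below the Het male mean. The difference between sexes was not tested. The Het male mean rests on Het male 3, at 963.5 CPM.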

How the results depend on the processing

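At 4 h the genes past the threshold, 7 as reported, were 144 with DESeq2, 28 with a robust spread, 38 with the replicate block, 62 with the GC and length correction plus block, 1 without the 2 libraries with Xist reads, and 1 to 211 leaving out single libraries (members 0 to 1). Males minus females gave 3 genes as reported, 215 with no filter on low counts (2 of them members, of which Meg3 alone counts as tested, since the other was chosen on these libraries), 6 with DESeq2, 1 with the replicate block, 9 without the library whose sex-linked reads go against its label, 0 without the 3 Ttr libraries, and 2 to 9 leaving out single libraries. KO minus Het gave 0 genes as reported; in females it gave 180.0 with no filter, 2 with DESeq2 and 6 with the replicate block; in males 220.0 with no filter, 1 with DESeq2 and 1 with only that sex fitted; averaged over sexes 263 with no filter, 10 with DESeq2, 6 with the block and 0 to 2 leaving out single libraries. At 24 h same-numbered libraries did not vary together (r -0.18 to 0.11 between genotypes), so no pairing by number was seen there.

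Of the member values at 4 h, 148 of 160 kept their sign and side of the threshold. Between sexes, 195 of 210 counted as unchanged. For Plagl1 and Ndn, which were not tested there, unchanged meant a shift smaller than the SD within groups. For the other genes it meant the same sign and side of the threshold. At 4 h, Dlk1 was 0.15 in edgeR and 0.16 in DESeq2, and without the Xist libraries Ndn was -0.0047, Cdkn1c -0.16 and Peg3 -0.014; leaving out single libraries gave -0.58 to 0.29 for Dlk1, -0.12 to 0.26 for Cdkn1c, -0.0088 to 0.19 for Peg3 and -0.11 to 0.011 for Grb10. Between sexes, H19 was -0.0043 without the Ttr libraries and -0.0064 with the GC and length correction, and Grb10 0.023 without the Ttr libraries; leaving out single libraries gave -0.037 to 0.072 for H19, -0.18 to 0.65 for Dlk1 and -0.060 to 0.014 for Grb10. The causes were not tested. In males at 24 h, KO minus Het ran from -1.10 to -0.90 for Ndn and 0.63 to 0.78 for Plagl1 over 22 settings. Depth limits mainly Dlk1 and Cdkn1c, with as few as 45 and 76 reads in a library.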
